A study of Mus musculus with 59 samples.

Results

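The 10 genes described here encode the main heat shock proteins of the cytosol and of the mitochondrial matrix. They were picked by gene symbol from the 19613 genes with a value in the series, at a time when earlier results of these data were known. Of these, 7 act mainly in the cytosol and nucleus (Hspa1a, Hspa1b, Hspa8, Hsph1, Hsp90aa1, Hspb1 and Dnajb1) and 3 act in mitochondria (Hspa9, Hspd1 and Hspe1). All 10 were measured.

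Heat shock proteins are chaperones that hold, fold or refold other proteins. The transcription factor HSF1 raises the transcription of the stress-inducible members when unfolded proteins accumulate in the cytosol, and it binds DNA at repeated GAA and TTC blocks called heat shock elements. Mitochondria have chaperones of their own, encoded in the nucleus and imported, and a shortage of folding capacity there is answered by other factors, ATF5 and ATF4 among them. Motor neurons are known for a weak induction of the inducible heat shock proteins, and misfolded SOD1 is a known client of these chaperones.

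In the assay, embryoid bodies (EBs) containing spinal motor neurons were exposed for 24 h to serum from mice carrying a mutant human SOD1 transgene, a model of amyotrophic lateral sclerosis, or from littermates without it, and RNA was measured on Affymetrix mouse exon arrays. The question was whether the cells respond differently to serum taken before symptoms appear. There were 29 arrays with carrier serum and 30 with non-carrier serum, each from a serum sample of its own. The arrays were put into 9 runs by the names and numbers in their titles: motorneuron, HB9MNs, 10wk and 6 runs known by numbers alone, called A to F here. No label gives the borders between runs A to F, which were inferred and do not all fall at gaps in the numbers. Serum donors were males, hemizygous for the transgene or wild type at it, and F1 progeny of the strains C57BL/6 and SJL. As time point the labels name 10 weeks in the 6 arrays of run 10wk and 9 weeks in the other 53. Their wording refers to cultures, but the EBs were exposed to serum within days of their differentiation. The weeks are therefore read here as the age of the mice that gave the serum. The indicator cells of both groups were grown from mouse embryonic stem cells of the line HBG3, in which the motor neuron gene Hb9 drives a fluorescent reporter. They carried no SOD1 mutation, so the transgene differs between the donors of the serum and not between the cells. An EB is a mixture in which motor neurons are a fraction of the cells, and fewer cells of a type cannot be told apart from less RNA per cell in such a sample.

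The EB label was checked against marker genes. Mean log2 intensities ranged from 8.62 to 10.51 over 6 motor neuron markers, from 7.04 to 10.47 over 6 progenitor markers and from 5.37 to 6.64 over 5 pluripotency markers. Summed over the motor neuron markers, linear intensity ran from 3432 to 4797 over the carrier arrays and from 3390 to 4649 over the non-carrier arrays. The sum over the progenitor markers ran from 2462 to 3958 and from 2594 to 3776 in the same order. Of the markers of motor neurons, progenitors, pluripotent cells, interneurons, glia, mesendoderm and red blood cells, 1 passed the test of serum, the choline transporter gene Slc5a7, which was higher by 0.15 with carrier serum (adjusted p = 0.0410). The 5 mesendoderm and 4 red blood cell markers all had positive estimates, and none of them passed. The part of the makeup of the EBs in the results below was not tested beyond a fit with 4 motor neuron genes as covariates.

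The sequences that bear on heat shock control are shown first, since the inducible members share a regulator. RefSeq promoter windows on the assembly GRCm38.p6 were found for 7 of the 10 members, and those of Hspa8, Hsp90aa1 and Hspa9 were not used here. In the 250 bases before each gene start, both strands were searched for the paired blocks GAANNTTC and TTCNNGAA, each of which reads the same on the other strand. GAANNTTC was found in 6.69% of 32851 such windows of mouse genes, TTCNNGAA in 7.17%, either in 12.8% and at least 2 matches in 1.46%. These shares are per window, and some genes have a window for each of 2 starts. Of the 10 windows of the 7 members 7 held a match, which belong to 6 genes, and windows of the same gene can overlap. In Hspd1 the window of 1 start held a match and the other held none. The stretches of 5 genes are printed with 15 bases on each side and the match in capitals, and that of Hspd1 is the Hspe1 stretch read on the other strand.

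Hspa1a, chr17:34972238-34972275, minus strand: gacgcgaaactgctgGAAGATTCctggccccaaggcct

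Hspa1b, chr17:34959320-34959357, minus strand: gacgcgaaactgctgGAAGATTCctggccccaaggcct

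Hsph1, chr5:149636347-149636384, minus strand: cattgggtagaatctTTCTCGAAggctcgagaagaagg

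Hspb1, chr5:135887787-135887844, plus strand: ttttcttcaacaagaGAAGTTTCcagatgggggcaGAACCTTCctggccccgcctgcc

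Hspe1, chr1:55088044-55088091, plus strand: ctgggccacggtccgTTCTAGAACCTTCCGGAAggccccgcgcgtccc

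The Hspa1a and Hspa1b stretches are the same 38 bases at separate sites, and each ends 82 bases before the start of its gene. Over their whole windows of 300 bases the pair differs at 4 positions. Transcripts and probes were not compared here, and the array values of both genes may share probes. The Hspb1 stretch holds 2 matches, the nearer of which starts 97 bases before the gene. In Hspe1, 3 matches overlap in an unbroken array of alternating blocks, the first of them 89 bases before the start. The genes Hspd1 and Hspe1 lie head to head, and the Hspe1 stretch falls inside the annotated span of Hspd1, where the same DNA also lies before an Hspd1 start on the other strand. The Hsph1 match starts 33 bases before an annotated start of that gene and lies within the annotated span of the gene, which has other starts. No match was found in either window of Dnajb1. A match of letters is a description of the DNA and not a measured binding site.

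With carrier serum, Hspa9 fell and the other 9 members did not pass the test. The change was fitted for every gene as carrier minus non-carrier log2 intensity with the run as a block, and a gene was called at an adjusted p under 0.05 over all 19613 genes. Of the 10 members, 1 was called lower, against 1.65% of all genes, and 0 were called higher, against 0.683% of all genes. In either direction 1 of 10 was called, against 2.33% of all genes. At an unadjusted p under 0.05 there were 3 members, Hspa9, Hsph1 and Hspa8, or 30% against 20.7% of all genes. The estimate was positive for 8 members, or 80% against 61.1% of all genes, with a median of 0.04 over the members and 0.016 over all genes. The positive estimates were small, and the plot of single arrays shows them beside the spread.

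**Figure D1:**
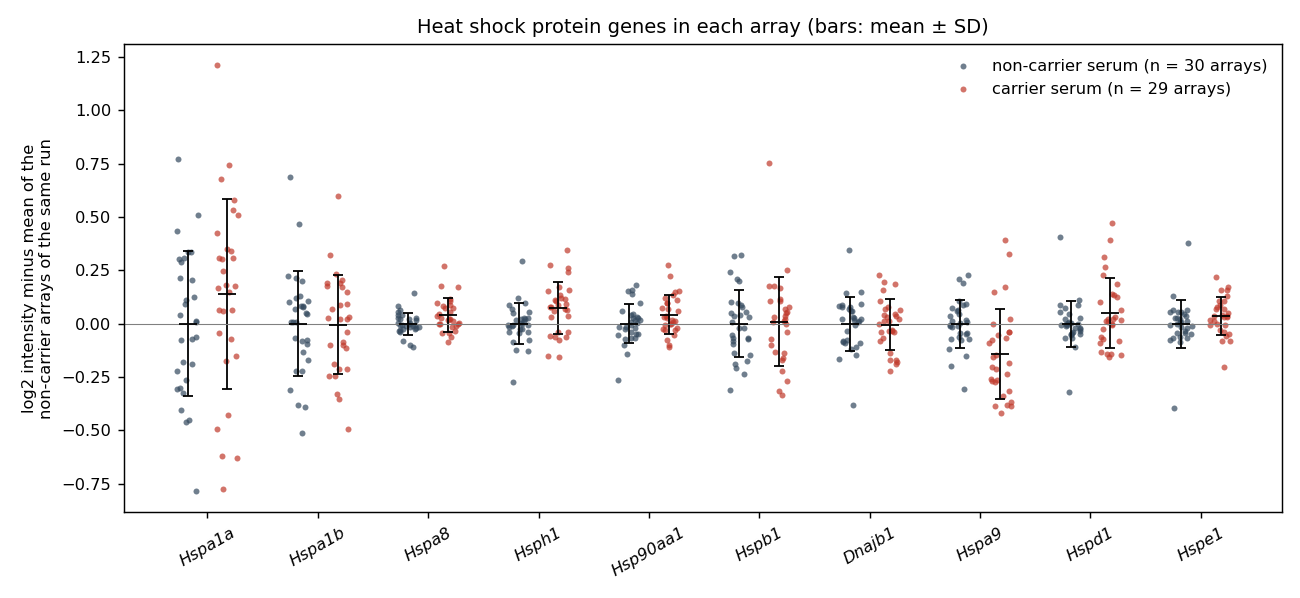
Log2 intensity of each of the 10 genes in each array, given as the difference from the mean of the non-carrier arrays of the same run (vertical axis), for 29 carrier arrays (red) and 30 non-carrier arrays (dark). Bars are means with their SD over arrays. The carrier arrays of Hspa9 sit mostly below 0, 24 of 29 of them, and those of Hspa1a spread the most.

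Hspa9 encodes mortalin, the HSP70 of the mitochondrial matrix, which pulls imported proteins through the inner membrane and helps to fold them. Its log2 intensity had a lowest value of 10.12, a median of 10.46 and a highest value of 10.87 with carrier serum, and 10.04, 10.60 and 11.10 with non-carrier serum. Over all runs the groups overlapped widely, since runs differed more than sera. Within runs the fitted change was -0.15 ± 0.038 (SE, limma, adjusted p = 0.0250), which is 9.71% lower on the linear scale, with a 95% interval from -0.22 to -0.071. The carrier mean was lower in 8 of 9 runs, a count that 5.45% of all genes reach.

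In 6 runs (A, B, D, E, F and 10wk) every carrier array was below every non-carrier array, and 0.265% of all genes did the same in at least 6 runs. In run F the non-carrier arrays were at 10.92, 10.84 and 10.90 and the carrier arrays at 10.51, 10.50 and 10.47, a difference of -0.39, the largest of the 9 runs for this gene. In run B the non-carrier arrays were at 10.51, 10.33 and 10.73 and the carrier arrays at 10.18, 10.21 and 10.14, a difference of -0.35. In run D the 4 non-carrier arrays lay between 10.58 and 10.75 and the 3 carrier arrays between 10.37 and 10.41. The groups thus stood apart in these 3 runs, with a gap in run D wider than the range of its carrier arrays.

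The difference was -0.27 in run E and -0.25 in run D, and runs 10wk and A showed smaller ones, of -0.22 and -0.15. In HB9MNs and motorneuron the differences were -0.053 and -0.036, within the spread of the non-carrier arrays. Run C went the other way, with 6 carrier arrays between 10.13 and 10.58 and 5 non-carrier arrays between 10.04 and 10.28, a difference of 0.16. That run is larger than the groups in which the assays were made. It was split by the order of its samples into 2 parts, which no label gives. The first part differed by 0.26 and the second by 0.053. The test of whether the serum change of Hspa9 differs among runs had an unadjusted p of 0.00055 and an adjusted p of 0.142 (moderated F-test in limma). With run C parted, the same test gave 0.00031 unadjusted and 0.0917 adjusted. The pooled change of Hspa9 thus averages over runs that differed in size and, in run C, in sign.

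**Figure D2:**
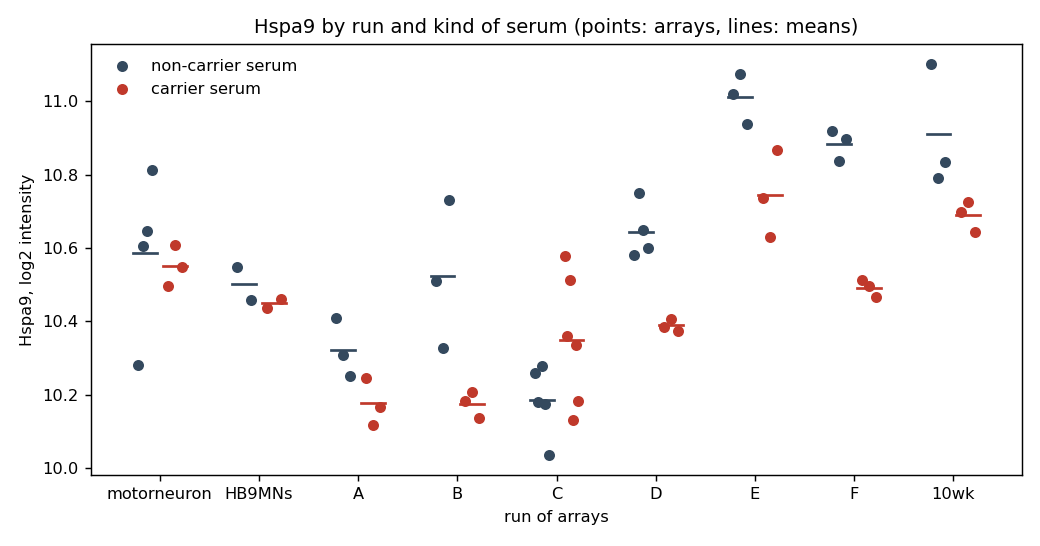
Log2 intensity of Hspa9 (vertical axis) in each array, by run (horizontal axis) and kind of serum; points are arrays and lines are means. Carrier arrays lie below all non-carrier arrays of their run in 6 runs, overlap them in motorneuron, HB9MNs and C, and have the higher mean in run C alone.

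The call of Hspa9 needed most of the runs. It was lost when run A, B, D, E, F or 10wk was left out, with adjusted p of 0.0656, 0.0914, 0.158, 0.0766, 0.146 and 0.0946 in that order (limma), while the estimate stayed negative and lay between -0.15 and -0.12. Without run C the change was -0.22 (adjusted p = 5.29e-05). With 4 motor neuron genes as covariates it was -0.25 (adjusted p = 3.46e-05). Without a block for the run it was -0.16 and the adjusted p was 0.995.

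The level of Hspa9 also differed among runs, apart from serum. Its non-carrier mean was lowest in run C at 10.19 ± 0.096 (SD, n = 5) and A at 10.32 ± 0.079 (SD, n = 3). HB9MNs, B, motorneuron and D followed between 10.50 and 10.64, and neighbours among these overlapped. F at 10.88 ± 0.042, 10wk at 10.91 ± 0.17 and E at 11.01 ± 0.069 (SD, n = 3 each) were highest, and their non-carrier arrays lay above all arrays of D. The highest non-carrier array of motorneuron, at 10.81, lay above the lowest of 10wk, at 10.79.

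Hspd1 and Hspe1 form the other mitochondrial folding machine, HSP60 and its lid HSP10. Hspd1 had a lowest value, median and highest value of 9.74, 10.09 and 10.68 with carrier serum and of 9.71, 10.02 and 10.44 with non-carrier serum. Its change was 0.051 with a 95% interval from -0.024 to 0.12 (limma, adjusted p = 0.424). Hspe1 ran from 8.77 through 9.05 to 9.56 with carrier serum and from 8.81 through 9.01 to 9.78 with non-carrier serum, and its change was 0.037 with an interval from -0.020 to 0.093 (limma, adjusted p = 0.446). Both intervals lie above the interval of Hspa9; the difference between genes was not tested. The Hspd1 and Hspe1 symbols have 5 and 6 named pseudogenes in the annotation and Hspa9 has 1, and probes that such copies share could add to their values.

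Among the cytosolic members, Hsph1 came nearest to the threshold, on the higher side. It encodes HSP110, which serves HSP70 as a nucleotide exchange factor. Its log2 intensity was lowest at 8.35, had a median of 8.73 and was highest at 9.06 with carrier serum, against 8.19, 8.63 and 8.87 with non-carrier serum. The change was 0.075 ± 0.028 (SE, limma, adjusted p = 0.126), with a 95% interval from 0.019 to 0.13. Every carrier array was above every non-carrier array in 5 runs (HB9MNs, A, B, D and E), and 0.296% of all genes did so in at least 5 runs. In run B the carrier mean was 8.99 ± 0.060 and the non-carrier mean 8.80 ± 0.061 (SD, n = 3 each). In motorneuron, C and F the carrier mean was slightly below the non-carrier mean. Without run C the adjusted p was 0.0407 and without motorneuron 0.0475 (limma), so 1 run decided on which side of the threshold this gene fell. It was 0.244 without run B and 0.357 without run D. With the 4 motor neuron genes as covariates the change was 0.017 (limma, adjusted p = 0.648). Hsph1 was called in 4 of 21 alternatives and had a positive estimate in all 21.

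Hspa8 encodes HSC70, the constitutive HSP70 of the cytosol, which works in folding, clathrin uncoating and chaperone-mediated autophagy. Its values ran from 12.75 through a median of 12.98 to 13.21 with carrier serum and from 12.62 through 12.97 to 13.14 with non-carrier serum. The change was 0.042 ± 0.017 (SE, limma, adjusted p = 0.163), with an interval from 0.0073 to 0.076. Runs A and B showed no overlap, with the carrier arrays above. The share of all genes that do so in as few runs was not counted, here or for the members below, so such runs are descriptions only. Hspa8 had the smallest spread of the members within runs and sera, an SD of 0.054, so the bound on its change is tight.

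Hsp90aa1, the inducible cytosolic HSP90 that matures kinases and steroid receptors and holds HSF1 inactive, had a lowest value, median and highest value of 11.16, 11.49 and 12.06 with carrier serum and of 11.17, 11.49 and 11.97 with non-carrier serum. Its carrier mean was higher in 7 of 9 runs, and the change was 0.043 with an interval from -0.0075 to 0.093 (limma, adjusted p = 0.317). The groups did not overlap in 1 run in each direction, again with no share of all genes to set beside it.

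The stress-inducible HSP70 genes Hspa1a and Hspa1b are the classic readout of HSF1 activity. Hspa1a ran from 6.73 through a median of 7.78 to 8.89 with carrier serum and from 6.61 through 7.59 to 9.16 with non-carrier serum. Its change was 0.14 ± 0.10 (SE, limma, adjusted p = 0.438), with an interval from -0.070 to 0.34. In run B the carrier arrays averaged 8.08 ± 0.057 and lay above the non-carrier arrays, which averaged 7.59 ± 0.31 (SD, n = 3 each). In run F the difference of 0.62 was larger, but the SD was 0.51 among carrier and 0.78 among non-carrier arrays and the groups overlapped. In motorneuron, HB9MNs and A the carrier mean was the lower one, by 0.21, 0.18 and 0.087 on the log2 scale in that order.

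Hspa1b had a lowest value, median and highest value of 5.64, 6.22 and 6.90 with carrier serum and of 5.58, 6.28 and 7.06 with non-carrier serum. Its change was -0.0058 with an interval from -0.13 to 0.12 (limma, adjusted p = 0.965). The 2 genes carry the same paired blocks in their promoters. Their deviations within runs and sera showed no linear relation, with a Pearson's r of -0.0045 over 59 arrays. The signal of Hspa1b was below the median of genes, which limits what this r shows. Across runs, both genes had their highest mean in motorneuron, at 8.63 and 6.75. Their SDs within runs and sera were 0.41 and 0.25, the widest of the 10 members.

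The small heat shock protein HSP27, which keeps unfolded proteins from clumping, is encoded by Hspb1. It ran from 5.99 through 6.65 to 7.68 with carrier serum and from 6.07 through 6.71 to 7.53 with non-carrier serum, and its change was 0.0058 with an interval from -0.089 to 0.10 (limma, adjusted p = 0.953). Dnajb1, the HSP40 that hands clients to HSP70, had values from 8.20 through 8.53 to 8.76 with carrier serum and from 7.81 through 8.53 to 8.76 with non-carrier serum. Its change was 5e-04 with an interval from -0.066 to 0.067 (limma, adjusted p = 0.995). Neither gene had a run in which the sera did not overlap, whether or not the promoter held matches, as Hspb1 does and Dnajb1 does not.

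**Figure D3:**
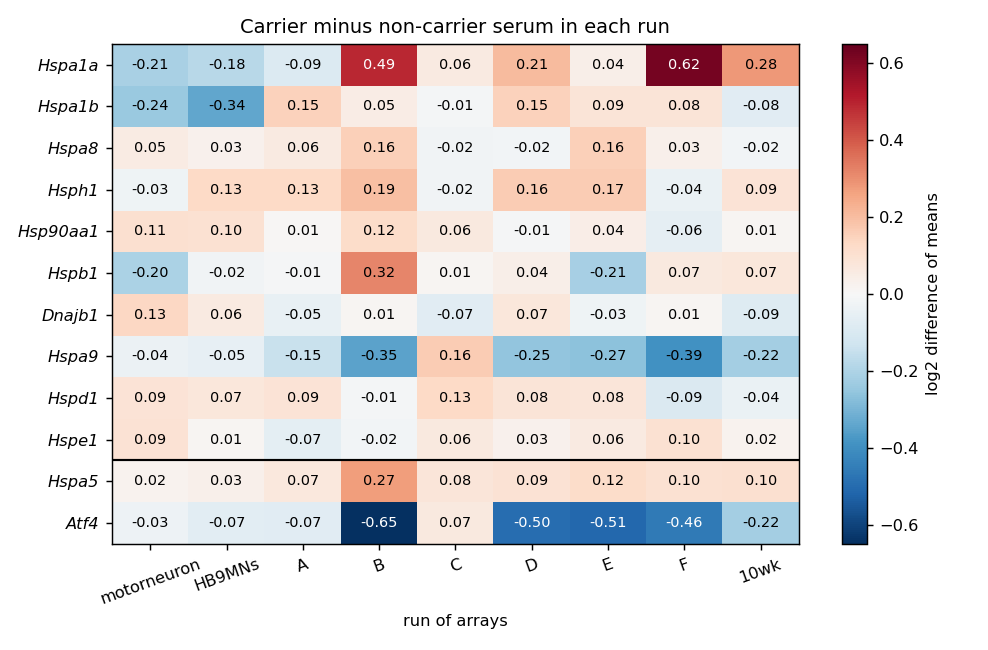
Difference of mean log2 intensity, carrier minus non-carrier serum, for the 10 members and, under the line, the ER chaperone gene Hspa5 and the transcription factor gene Atf4 (rows) in each of 9 runs (columns); red is higher and blue lower with carrier serum. Hspa9 is negative in every run but C, and the 7 cytosolic members have no row of 1 sign.

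Differences among runs were much larger than those between sera. All 10 members passed the test of runs, against 94% of all genes, so this is no mark of the family. Runs accounted for between 47.8% (Hspd1) and 82.0% (Hsp90aa1) of the variance of a member, with a median of 66.4% against 62.5% over all genes. The run means of Hspa1a went from 7.34 in 10wk to 8.63 in motorneuron, a range of 1.29 on the log2 scale. Hspb1 went from 6.27 in run C to 7.20 in motorneuron, and Hspa1b from 5.78 in run E to 6.75 in motorneuron. Motorneuron thus had the highest run mean of the inducible genes Hspa1a, Hspa1b and Hspb1, and also of Hsp90aa1 at 11.83 and Hspe1 at 9.44, but the lowest of Dnajb1 at 8.25. Hspa8 had the narrowest range, from 12.79 in 10wk to 13.11 in run B, and run B also had the highest mean of Hsph1 at 8.89. A serum change that differed among runs was called for 0 of the 10 members, against 0.127% of all genes, and 1 member, Hspa9, had an unadjusted p under 0.05 in this limma F-test, against 7.94% of all genes.

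The other genes of the chaperone network gave the setting. Of 70 listed genes, 68 were measured. A negative estimate was found for 39 (57.4%), against 38.9% of all genes, and the median was -0.016, against 0.016 over all genes. Among them 3 were called lower and 0 higher, against 1.65% and 0.683% of all genes, and 13 (19.1%) had an unadjusted p under 0.05, against 20.7% of all genes. All 3 called genes came from the 14 measured genes of mitochondrial stress and quality control, of which 11 had negative estimates. They were Atf5, a transcription factor of the mitochondrial unfolded protein response, at -0.23 ± 0.048 (SE, limma, adjusted p = 0.00448), Hscb, a cochaperone of iron-sulfur cluster transfer that works with mortalin, at -0.13 ± 0.039 (adjusted p = 0.0469), and Lonp1, the matrix protease, at -0.083 ± 0.023 (adjusted p = 0.0339). Hscb was lower in 9 of 9 runs, and Atf5 and Lonp1 in 8 of 9. Without run A, B, D, E or 10wk 1 network gene was called, Atf5 each time, and without run F 2, Atf5 and Chordc1. Without motorneuron Atf5 was called with Trap1, Cct3 and Cct7, and without run C 7 were called, Atf5, Hscb and Lonp1 among them.

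No gene passed in the other lists of this network. Beside the counts of signs that follow, 38.9% of all genes had negative and 61.1% positive estimates. Hsf1 itself was at -0.024 (limma, adjusted p = 0.491) and Hsbp1, which binds HSF1, at -0.035 (adjusted p = 0.473). Of the HSP90 system 8 of 12 measured genes had negative estimates, with Cdc37, the kinase cochaperone, at -0.053 and lower in 9 of 9 runs (adjusted p = 0.202) and Chordc1, a heat-inducible HSP90 partner, at 0.11 and higher in 8 of 9 (adjusted p = 0.0730). Dnaja1, an HSP40, was at 0.080 (adjusted p = 0.129) and Dnajc5, the cysteine string protein of synaptic vesicles, at -0.056 (adjusted p = 0.0817). Of the 8 subunits of the chaperonin TRiC 5 had negative estimates, with Cct7 at -0.078 (adjusted p = 0.109) and Cct3 at -0.071 (adjusted p = 0.0765). Among 8 further HSP70 genes 6 were positive, Hspa12b at 0.085 (adjusted p = 0.134) and Hspa4l at 0.040 (adjusted p = 0.322) foremost. Of 6 exchange factors and regulators of HSP70 4 were negative, and Hspbp1 at 0.034 (adjusted p = 0.413) and Bag4 at -0.035 (adjusted p = 0.427) came first. Of 7 small heat shock proteins 5 were positive, with Hspb6 at -0.055 (adjusted p = 0.377) and Cryab at 0.073 (adjusted p = 0.456) first.

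**Figure D4:**
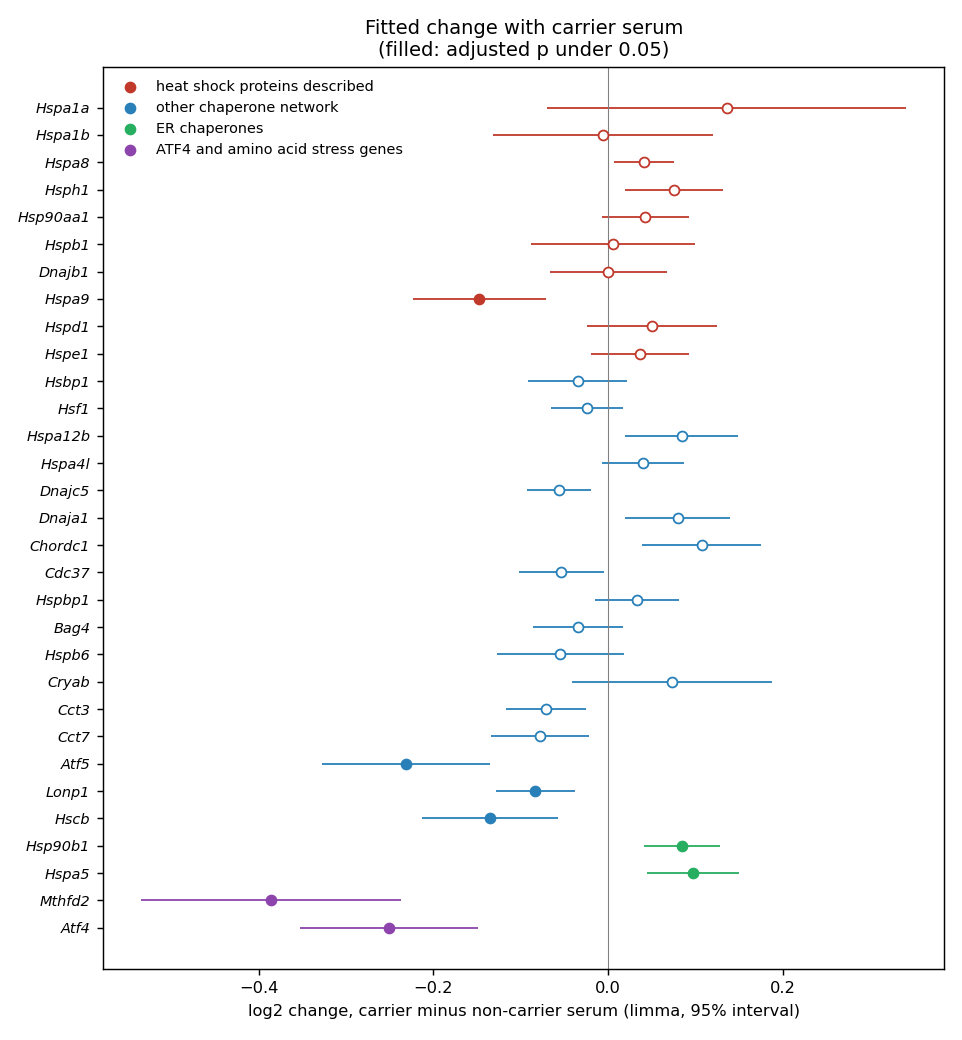
Fitted log2 change, carrier minus non-carrier serum, with its 95% interval (horizontal axis) for the 10 members (red), the named genes of the wider chaperone network (blue), and 2 genes each of the ER chaperones (green) and of the ATF4 and amino acid stress genes (purple). Filled points have an adjusted p under 0.05. Hspa9 is the filled member, at -0.15, and Hspa5 and Hsp90b1 are filled on the other side.

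Chaperones of the endoplasmic reticulum (ER), the HSP70 Hspa5 and the HSP90 Hsp90b1 among them, are relatives of the cytosolic members in another compartment. Of 14 such genes 3 rose and 0 fell, 12 had positive estimates and the median was 0.039, where 0.683% of all genes rose, 61.1% had positive estimates and the median was 0.016. Hspa5 rose by 0.097 ± 0.026 (SE, limma, adjusted p = 0.0313) with the carrier mean higher in 9 of 9 runs, and Hsp90b1 rose by 0.085 ± 0.022 (adjusted p = 0.0228). Without run B, D or 10wk 0 of these 14 were called higher (3, 4 and 4 at an unadjusted p under 0.05, limma), and without A, E or F 1. With arrays centred on their median 0 were called higher (3 at an unadjusted p under 0.05) and with the covariates 1. Genes that ATF4 raises under amino acid shortage and ER stress moved the other way: 12 of 13 fell, all 13 had negative estimates and the median was -0.28, where 1.65% of all genes fell and 38.9% had negative estimates. Mthfd2, a mitochondrial folate enzyme, was at -0.39 (adjusted p = 0.00239) and Atf4 itself at -0.25 (adjusted p = 0.00329). Without run B, D or F 4 of the 13 were called lower, without E or 10wk 6 and without A 9, and without C 13. The fall of this list was known when it was written, so it is background to Hspa9 and not independent evidence. Atf4 differed by -0.65 in run B, -0.51 in E, -0.50 in D and -0.46 in F. It differed by -0.22 in 10wk, -0.072 in A, -0.070 in HB9MNs and -0.032 in motorneuron. Hspa9 was lower in all of these runs, and in run A the sera overlapped for Atf4 but not for Hspa9. In run C Atf4 differed by 0.065 and Hspa9 was higher. Whether the differences of these genes go together over runs was not tested. Of 7 targets of the oxidative stress factor NRF2 2 fell, Hmox1 at -0.22 (adjusted p = 0.0365) and Slc7a11 at -0.46 (adjusted p = 0.0202), the latter also in the ATF4 list.

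After the run and serum means were taken off, arrays in which 1 member was high tended to be high in some others. These correlations are over 59 arrays that share normalization and RNA of the same EBs, and they are descriptions. The highest was between Hsph1 and Hspd1 at 0.69, followed by Hspa8 and Hsp90aa1 at 0.65, Hspa8 and Hspd1 at 0.59, Hspa8 and Hsph1 at 0.58 and Hspa9 and Hspd1 at 0.58. The head-to-head pair Hspd1 and Hspe1 was at 0.50. The lowest was between Hspb1 and Hspa9 at -0.32. Hspa8 and Hspd1, from different compartments, each took part in 3 of these 5 pairs. The highest r of Hspa1a was 0.45, with Hspa8, and that of Hspa1b was 0.30, with Hspe1. Single arrays can weigh on these values. In run E the carrier array farthest from its run had Hspd1 at 10.68, against 10.06 and 10.13 in the other carrier arrays. Hsph1 was at 9.03 in that array, against 8.75 and 8.78. In the non-carrier arrays of motorneuron Hspd1 ran from 9.72 to 10.44 and Hsph1 from 8.19 to 8.76. The same arrays were lowest and highest for both genes. No r here or below was recomputed without these arrays.

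**Figure D5:**
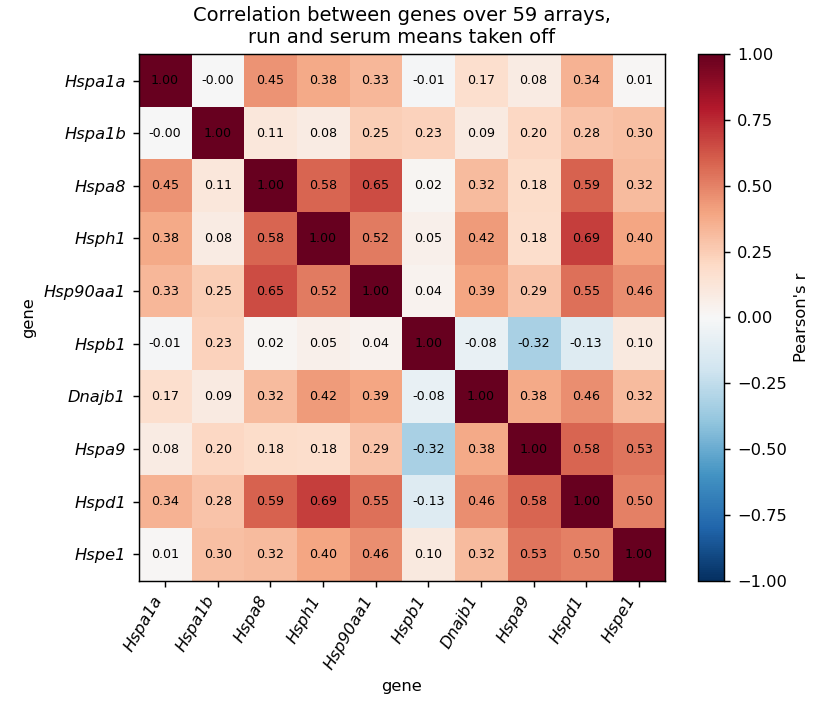
Pearson's r between each pair of the 10 genes over 59 arrays (colour and number), after the mean of each run and serum was taken off. Hspa8, Hsph1, Hsp90aa1 and Hspd1 are correlated with each other, and the row of Hspb1 holds the lowest value, -0.32 with Hspa9.

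With the 13 ATF4 genes, Hspa9 had a median r of 0.54, a range from 0.14 to 0.80 and an r of 0.60 with Atf4, against a median of -0.10 with all genes. The medians of the other 9 members with the same genes lay between -0.18 and 0.22. With the 14 ER chaperones the medians were 0.56 for Hspd1, 0.47 for Hspa8, 0.42 for Hsph1 and 0.22 for Hspa9. They lay between 0.28 and 0.32 for Hspe1, Dnajb1, Hsp90aa1 and Hspa1a, and were lowest for Hspa1b at 0.065 and Hspb1 at 0.017.

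The genes most like each member over the 59 arrays were found by the same measure among all genes. For Hspa9 they were Eprs at 0.86, Ghitm at 0.84 and H3f3b at 0.83, and Eprs, a tRNA synthetase, was itself called lower at -0.15 (limma, adjusted p = 0.0435). For Hspd1 they were Anp32e at 0.92, Srsf3 at 0.89 and Mtf2 at 0.89, and for Hspe1 Nsa2 at 0.80, Clk1 at 0.77 and Katna1 at 0.77. Dnajb1 was most like Ahsa1, the HSP90 activator, at 0.74, Trap1, the mitochondrial HSP90, at 0.74 and Plrg1 at 0.73. Hspa8 was most like Caprin1 at 0.74, Atp5b at 0.74 and Hnrnpk at 0.74, Hsph1 like Gnai3 at 0.83, Ctps at 0.83 and Mad2l1 at 0.80, and Hsp90aa1 like Sf3b1 at 0.86 and Ttc3 at 0.84. The highest values were lower for Hspb1 (Slc38a4 at 0.69, Krt8 at 0.64, Olfr395 at 0.61), Hspa1b (Olfr70 at 0.59) and Hspa1a (Slc16a9 at 0.54, Steap1 at 0.53, Cnot6 at 0.51). Krt8, a keratin of simple epithelia, was called higher with carrier serum at 0.14 (limma, adjusted p = 0.0239). For the mean of the 7 cytosolic members the nearest genes were Tcp1 at 0.66, Ipo5 at 0.66, Stip1 at 0.65, Aebp2 at 0.65 and Hspa5 at 0.64, of which Tcp1 is a subunit of TRiC and Stip1 the link between HSP70 and HSP90.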

How the data were processed

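The authors processed the exon arrays with RMA in the aroma.affymetrix package, averaged all exons of a gene, removed outlier arrays by Grubbs' test and normalized the arrays together. The deposited values are linear intensities for 19613 genes given by symbol. Exons were assigned to genes by Affymetrix's annotation of the array, and its genome build was not given in the sources used here.

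Log2 intensities (pseudocount 0, no filter) were fitted by limma 3.58.1 (lmFit, eBayes; R 4.3.3) with serum and run as terms. All tests were two-sided, p-values were adjusted by Benjamini-Hochberg across the 19613 genes, and an adjusted p under 0.05 made a call. Moderated F-tests covered differences among runs and serum by run. The procedure was checked on simulated data. The number of arrays limits the precision, and no depth applies. No batch is labelled, so runs were inferred from titles. The labels name no individual mouse, and p-values measure the spread between these serum samples.

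The members and gene lists were chosen with earlier results of these data known. Named genes were the 10 members, the called genes and the 2 with the largest moderated t of each list, and the 3 genes most correlated with each member (5 for the cytosolic mean). Of Hspa1b's 3, 1 is named, and 1 of Hsp90aa1's is not reported here. In all, 21 alternatives were run, 1 of them, which left out 2 arrays, added after the data were seen.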

Additional observations from a re-analysis of the deposited data

Results flagged for a closer look

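Of 40 sets of arrays of 1 member, run and serum with at least 4 arrays, 1 held an array far from the others, and chance gives about 1 in 20. In the non-carrier arrays of the run motorneuron the lowest array of Hspa1b stood apart, at a log2 intensity of 6.34 with the nearest at 6.95 and the highest at 7.06 (n = 4), a gap of 0.845 of the whole range. With the whole run left out, the change of Hspa1b was 0.025 (limma, adjusted p = 0.834).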

How the results depend on the processing

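Hspa9 had a negative estimate under all 21 alternatives, from -0.25 to -0.12, and was called in 14. Members called were 0 without a run block and without run A, B, D, E, F or 10wk, and 2 (Hspa9 and Hsph1) with a replicate block in the 3 runs whose titles give both sera the same numbers or letters, with array weights, and without motorneuron or C. Where 0 were called with a run left out, 2 members (without B or E) or 3 (without A, D, F or 10wk) had an unadjusted p under 0.05, against 13.7% to 19.9% of all genes. Between samples of the same number r ran from -0.13 to 0.33. With 2 to 4 arrays of a serum in these runs, this cannot tell whether the numbers pair the samples. Under the replicate block Hsph1 had a change of 0.087 (limma, adjusted p = 0.0418). Members with a negative estimate were 2 in the main analysis, 1 under the replicate block and among the 8 members left when genes under the median intensity were dropped (Hspa1b and Hspb1 left out), 4 with arrays centred on their median and without run B or F, and 5 with motor neuron genes as covariates.

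Network genes called were 0 without a block, 1 with runs as a random block and without A, B, D, E or 10wk, 6 without dim genes, 7 without C, 17 with array weights and 24 with the covariates. Over all genes 2.33% were called, against 0% without a block (805 genes at an unadjusted p under 0.05 in limma, 1 member and 3 network genes among them), 0.54% without D, 0.576% without 10wk, 0.831% without F, 0.857% without B, 1.17% without A, 1.38% without E, 6.68% without dim genes, 8.16% without C, 14.3% with array weights and 31.2% with the covariates. The causes were not tested.

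Estimates near 0 changed sign. Hspb1 was at -0.019 without a block, -0.0015 with centred arrays, -0.028 after quantile normalization, -0.030 without B, -0.0011 without F and -0.0019 without 10wk. Hspa1b was at 0.0047 with the replicate block, 0.0083 with the covariates, 0.018 with array weights, 0.025 without motorneuron, 0.019 without HB9MNs and 0.0022 without 10wk. Dnajb1 was at -0.035 with the covariates, -0.0068 with centred arrays, -0.0088 with array weights, -0.017 without motorneuron, -0.0038 without HB9MNs, -6.65e-04 without B, -0.0093 without D and -0.0011 without F. With the covariates Hspd1 was at -0.067, Hspe1 at -0.027 and Hsp90aa1 at -0.0042. Centring and quantile normalization moved the median change of all genes from 0.016 to 0.0084 and 0.0015.

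Signals of Hspa1b and Hspb1 were below the median of genes, and the exon arrays report no detection call here, which limits what their values show. Without the carrier array of run E and the non-carrier array of motorneuron that stood farthest from their runs, Hspa9 was at -0.14 (limma, adjusted p = 0.0301).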
